A study of Mus musculus with 54 samples.

Results

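Glycine is, with GABA, the main fast inhibitory transmitter of the brainstem and spinal cord. It opens chloride channels built from alpha subunits (Glra1, Glra2, Glra3) and a beta subunit (Glrb) that gephyrin (Gphn) anchors under the synapse. Slc6a5 (GlyT2) returns glycine to the nerve ending, Slc6a9 (GlyT1) clears it, mostly into glia, and Slc32a1 loads both glycine and GABA into vesicles. Mutations of GLRA1, GLRB and SLC6A5 cause startle disease in people, and the startle reflex runs through the brainstem. These 8 genes were followed here in mice used to study prepulse inhibition, in which a weak sound lessens the startle to a loud sound that follows it.

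The members were all probe sets that the array's annotation gave to the 8 symbols, 18 probe sets of 45101 and 8 genes of 18193, and the brightest probe set of a gene over all arrays stood for it. RNA came from hippocampus, striatum and brainstem of male mice, killed at postnatal day 60, of 6 inbred strains: C57BL6/J, C57BL10/J, C57L/J, then C57BLKS/J, and also BalbC/J and C3H HeJ. No strain carried an engineered allele in the labels. Each of the 6 strains had 3 arrays per tissue, 54 in all: 1 from mice tested for prepulse inhibition from day 50 and 2 from untested mice, and every array pooled 3 mice. Values are log2 intensities. Below, the 3 values of a strain are given in the order tested pool, first untested pool, second untested pool, and a difference was called when limma's Benjamini-Hochberg adjusted p over all genes tested was under 0.05. All p-values thus reflect how much pools varied.

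The tissue labels matched most of their markers. Of hippocampus markers, 9 of 9 were over 2-fold higher in hippocampus than in brainstem and 8 of 9 than in striatum. All 6 of 6 striatum markers were over 2-fold higher in striatum than in either other tissue. Of 13 hindbrain markers tested, 13 were over 2-fold higher in brainstem than in hippocampus and 12 than in striatum. Cerebellum markers (7 of 9) and choroid plexus markers (4 of 5) were also over 2-fold higher in brainstem than in hippocampus. A pair of libraries stood apart. On the second untested C3H HeJ brainstem array the cerebellum markers averaged 4.17 above the brainstem median and the hindbrain markers 1.02 below it (log2), and the called C3H HeJ brainstem results are given with and without it. On the second untested C57L/J striatum array the striatum markers averaged 12.74 (6 of 6 above the 40th percentile), beside 13.51 or more in every other strain. In pooled tissue, fewer cells of a type and less RNA per cell cannot be told apart.

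RefSeq promoter entries were held for 7 of the 8 genes (all but Glra1). The 4 windows of 250 bases before the annotated start (build GRCm38.p6, 5′ to 3′ on the gene's strand) are shown because they belong to genes with differing tissue patterns: Slc6a5 and Glra3 were brightest in brainstem, while Glrb and Gphn were bright in all 3 tissues. Capitals mark CpG pairs.
Slc6a5, chr7:49910049-49910298, plus strand: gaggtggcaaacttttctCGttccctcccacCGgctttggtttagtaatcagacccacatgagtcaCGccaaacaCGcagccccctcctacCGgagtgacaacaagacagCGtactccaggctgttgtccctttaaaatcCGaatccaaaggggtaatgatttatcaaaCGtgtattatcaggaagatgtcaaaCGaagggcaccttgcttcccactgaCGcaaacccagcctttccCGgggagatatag
Glra3, chr8:55940168-55940417, plus strand: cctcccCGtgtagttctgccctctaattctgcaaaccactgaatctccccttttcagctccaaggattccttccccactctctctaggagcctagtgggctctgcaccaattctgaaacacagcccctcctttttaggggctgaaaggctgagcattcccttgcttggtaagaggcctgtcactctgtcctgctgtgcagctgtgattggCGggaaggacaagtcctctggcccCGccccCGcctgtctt
Glrb, chr3:80913661-80913910, minus strand: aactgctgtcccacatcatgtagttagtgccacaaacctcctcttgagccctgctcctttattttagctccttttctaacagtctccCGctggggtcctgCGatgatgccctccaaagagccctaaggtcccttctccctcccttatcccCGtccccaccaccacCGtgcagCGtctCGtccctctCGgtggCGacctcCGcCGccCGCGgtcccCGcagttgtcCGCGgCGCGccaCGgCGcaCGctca
Gphn, chr12:78226405-78226654, plus strand: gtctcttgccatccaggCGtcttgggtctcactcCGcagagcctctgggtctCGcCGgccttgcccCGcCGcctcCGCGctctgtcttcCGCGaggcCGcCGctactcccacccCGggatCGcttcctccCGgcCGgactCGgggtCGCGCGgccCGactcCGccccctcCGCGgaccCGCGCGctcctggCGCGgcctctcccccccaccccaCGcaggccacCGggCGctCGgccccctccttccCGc
The Gphn window held 34 CpG pairs, as many as or more than 97.0% of 32851 such windows, and the Glrb window held 20. The Slc6a5 window held 11 and the Glra3 window 4, against a median of 6. Slc6a5 has a second annotated start, whose window held 7; the first is shown. Windows of the other genes held 8 for Glra2, 12 for Slc32a1 and 9, 10 and 8 for the starts of Slc6a9. Whether CpG pairs go with tissue pattern was not tested. The letters TATAAA, on either strand, were in 12.4% of all windows and in none of these 4, but were in the Glra2 window. GGGCGG, on either strand, was in 32.7% of all windows and in those of Glra3, Glrb and Gphn.

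Glra1, Glra3 and both glycine carriers were higher in brainstem than in either other tissue, and Glra2 was higher there than in hippocampus. Between brainstem and hippocampus 6 of 8 members differed over 2-fold, all higher in brainstem (25.1% of the 13229 genes tested differed by that much). Between brainstem and striatum 4 of 8 did, again all higher in brainstem (33.2%), and between hippocampus and striatum 1 of 8 did (21.1%). The median difference of the members was 2.22 against hippocampus and 1.47 against striatum, beside 0.01 and 0.30 over all genes.

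**Figure D1:**
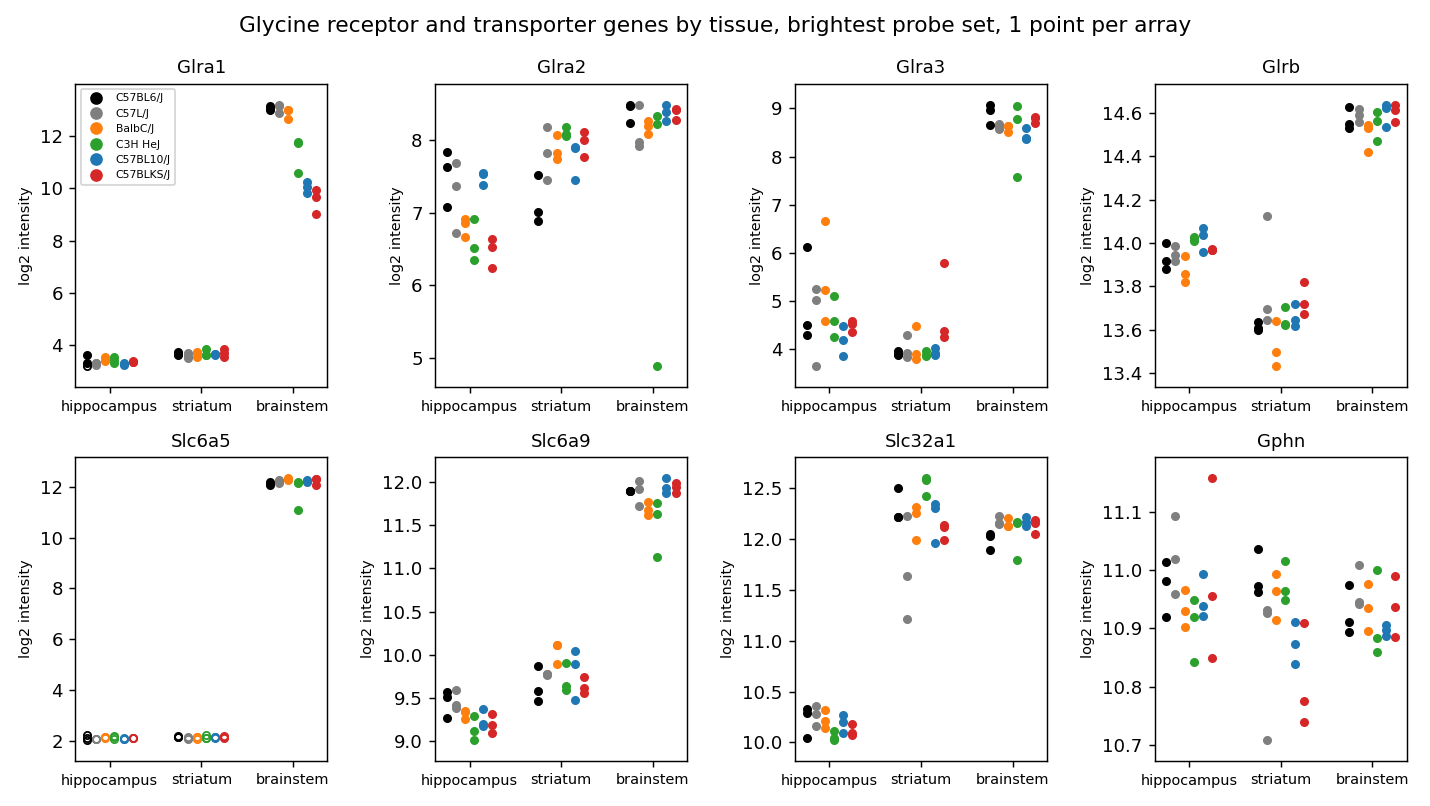
Log2 intensity (vertical axis, a separate scale per gene) of the brightest probe set of each gene on all 54 arrays, by tissue, with 1 point per array coloured by strain; open points lie at or below the array's 40th percentile. Slc6a5 lies between 11.08 and 12.34 in brainstem and near 2.1 elsewhere, while the 54 Gphn values lie between 10.71 and 11.16.

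Slc6a5, the carrier that marks glycine-releasing neurons, had brainstem values from 11.08 to 12.34 (median 12.20, 18 arrays). In hippocampus it lay between 2.03 and 2.24 and in striatum between 2.08 and 2.20, not above the 40th percentile of any of those 36 arrays, so only a bound can be given. Taking the higher of its value and that percentile, Slc6a5 was at least 453-fold higher in brainstem than in hippocampus and at least 496-fold higher than in striatum, bounds that carry no test. Its second probe set was likewise bright in brainstem alone, at 4.80 to 7.17 in brainstem and not above the 40th percentile of any other array. Hoxb5, Kcnj14 and Hoxc4 had the patterns most like it over the 18 strain-by-tissue means (Pearson r = 0.9999, 0.9998 and 0.9998, descriptions across means that share arrays).

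Glra1, the adult alpha subunit of the brainstem and spinal cord, had brainstem values from 9.03 to 13.20 (median 12.22). Its hippocampal values of 3.21 to 3.64 were above the array's 40th percentile on 14 of 18 arrays, and its striatal values of 3.53 to 3.86 on 18 of 18. The brainstem mean was 8.28 ± 0.08 (SE) above hippocampus and 7.98 ± 0.08 above striatum on the log2 scale. Rab39, Acrbp and Acy3 had the nearest patterns over the 18 means (r = 0.991, 0.987 and 0.985).

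Glra3, an alpha subunit known from spinal pain pathways, ranged from 7.57 to 9.08 in brainstem, from 3.65 to 6.66 in hippocampus and from 3.80 to 5.80 in striatum. No brainstem value overlapped the other tissues, and the differences were 3.90 ± 0.17 and 4.53 ± 0.17 (log2, SE). Its second probe set was at or below the 40th percentile on all 54 arrays and measures nothing here. Glra2, the X-linked subunit that prevails before birth, was present in all 3 tissues, with a hippocampal median of 6.91, a striatal one of 7.86 and a brainstem one of 8.28. Its brainstem mean was 1.08 ± 0.17 above hippocampus, a called difference. Against striatum the difference of 0.32 ± 0.17 was not called (adjusted p = 0.0678). Without the second untested C3H HeJ brainstem array it was 0.51 and called (adjusted p = 2.94e-07).

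Slc6a9 ranged over 11.13 to 12.05 in brainstem, 9.47 to 10.12 in striatum and 9.01 to 9.59 in hippocampus. The brainstem values lay above all others, by 2.51 ± 0.05 over hippocampus and 2.05 ± 0.05 over striatum, and the hippocampal mean was 0.47 below the striatal one. The astrocyte markers were also higher in brainstem, with a median difference of 0.61 over hippocampus (3 of 10 over 2-fold higher, 1 lower) and 1.20 over striatum (5 higher, 0 lower). Between hippocampus and striatum they went the other way from Slc6a9 (median 0.49, 3 higher and 0 lower). Their part in the Slc6a9 difference was not tested. Slc32a1, used by both GABA and glycine neurons, had hippocampal values of 10.02 to 10.36, striatal values of 11.21 to 12.59 and brainstem values of 11.79 to 12.22. Hippocampus lay 1.99 ± 0.05 below striatum and 1.93 ± 0.05 below brainstem, and striatum and brainstem overlapped (difference -0.06, adjusted p = 0.293). That difference depended on the processing: it was called at 0.05 with the mean of its probe sets, at -0.29 after quantile normalization and at -0.31 after centring (adjusted p = 0.0115, 1.62e-06 and 4.39e-06, limma). The other 3 Slc32a1 probe sets were at or below the 40th percentile on all 54 arrays. A mean over its probe sets takes these in and shrinks any difference of the main one, so calls gained or lost with it decide nothing.

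Glrb, the beta subunit, was bright in every tissue: 14.42 to 14.64 in brainstem, 13.82 to 14.07 in hippocampus and 13.43 to 14.13 in striatum. By this main probe set brainstem was higher by 0.61 ± 0.03 and 0.90 ± 0.03, both called and both under 2-fold. The second Glrb probe set lay further apart, with means of 14.59, 13.61 and 13.17 in brainstem, hippocampus and striatum. Between brainstem and striatum that is over 2-fold. By its main probe set Gphn moved least, with medians of 10.95, 10.93 and 10.92 in hippocampus, striatum and brainstem. The dimmest Gphn probe set was higher in brainstem (9.66 to 9.99) than in hippocampus (8.99 to 9.62) or striatum (8.90 to 9.37), without overlap. The remaining Gphn probe set had means of 10.20, 10.28 and 10.06 in brainstem, hippocampus and striatum. For the main probe set the Gphn difference of 0.05 between hippocampus and striatum was called (adjusted p = 0.0462). That difference turned to -0.20 after quantile normalization over all arrays and to -0.31 after centring each array on its median. The tissues may have been normalized apart, and the median of all genes tested differed by 0.24 between hippocampus and striatum as deposited, by -0.01 after quantile normalization and by -0.12 after centring. The share of over 2-fold genes that were higher in hippocampus was 70.9%, 54.5% and 50.3% under these scalings, and for brainstem over striatum it was 69.3%, 59.8% and 57.6%. Under both scalings the counts of 6 and 4 members higher in brainstem were unchanged.

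Lists of genes around this synapse were set beside all genes. Of the 13229 genes tested, 1788 were over 2-fold higher in brainstem than in hippocampus and 1534 were lower. Against striatum 3045 were higher and 1348 lower. The counts below come from short lists, carry no test and are given as descriptions. Among 8 genes of glycine synthesis and cleavage, none was over 2-fold higher in brainstem than in hippocampus and 1 was lower: Gldc, the decarboxylase of the glycine cleavage system, by -5.01. Among 11 other inhibitory synapse scaffold genes, 0 were higher and 3 were lower: Slitrk3, an adhesion protein (-3.04), Shisa7, a GABA-A receptor partner (-2.07), and Dynll1, a dynein light chain that binds gephyrin (-1.04). Among 7 other neutral amino acid carriers, 3 were higher: Slc7a10, which carries glycine and D-serine (1.35), and the glutamine carriers Slc38a1 (1.12) and Slc38a2 (2.23-fold). Against striatum 5 of these 7 carriers were higher and 0 lower, with a median of 1.69 beside the members' 1.47. Of 4 GABA genes 2 were higher, Slc6a11, the GABA carrier GAT3 (2.83), and Abat, which breaks GABA down (1.45). Of 4 chloride transport genes 2 were higher, the chloride importer Slc12a2 (1.48) and the kinase Stk39 (1.35). Of 6 molybdenum cofactor genes 2 were higher, Xdh (1.49) and Aox1 (1.03), both enzymes that use the cofactor gephyrin helps to make.

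The second question was whether the strains differed in these genes. In hippocampus 1 of 7 members tested differed among the 6 strains (Glra2), beside 31.2% of all genes. In striatum 2 of 7 did (Glra2 and Slc32a1), beside 26.2%. In brainstem 1 of 8 did (Glra1), beside 23.0%. Shares this near the background are no result about the members. The Glra1 range over strains in brainstem was wide, 3.53 on the log2 scale, against a median range of 0.30 over all genes tested, and 99.6% of those genes had a range no wider.

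Glra1 was low in brainstem of C57BL10/J and C57BLKS/J. Its values were 13.16, 13.08 and 12.99 in C57BL6/J, 12.86, 13.20 and 13.14 in C57L/J, and 12.97, 12.98 and 12.66 in BalbC/J. They were 11.73, 11.78 and 10.57 in C3H HeJ, 10.05, 10.23 and 9.82 in C57BL10/J, and 9.03, 9.95 and 9.68 in C57BLKS/J. C57L/J overlapped both C57BL6/J and BalbC/J, whose own values met without overlapping (12.99 and 12.98), while C3H HeJ lay between and overlapped none, and C57BL10/J and C57BLKS/J lay lowest and overlapped each other. The range was called with adjusted p = 5.34e-07 (limma's F test).

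**Figure D2:**
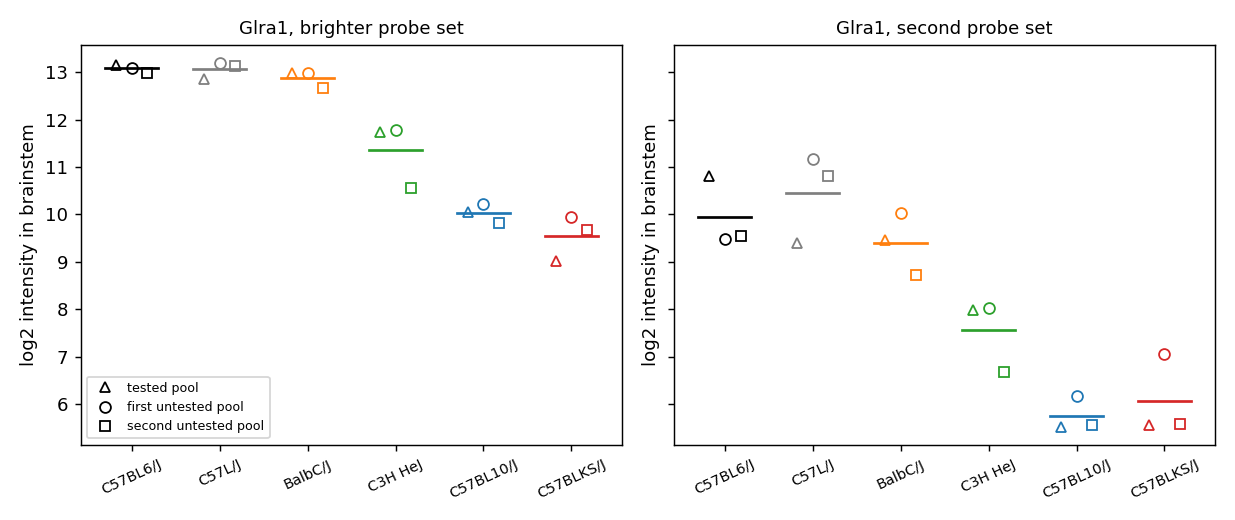
Log2 intensity of both Glra1 probe sets on the 18 brainstem arrays by strain; symbols show the pool and bars the strain mean. In both panels all values of C57BL10/J and C57BLKS/J lie below all values of C57BL6/J, C57L/J and BalbC/J.

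Against C57BL6/J (13.08 ± 0.0865, SD, n = 3), Glra1 was 8.26-fold lower in C57BL10/J (log2 difference -3.05 ± 0.28, SE, adjusted p = 4.02e-05) and 11.5-fold lower in C57BLKS/J (-3.53 ± 0.28, adjusted p = 3.61e-06, limma for both). In C3H HeJ it was 3.29-fold lower (-1.72 ± 0.28, adjusted p = 9.26e-04), and -1.30 ± 0.20 without the array that stood apart (adjusted p = 3.30e-04). All 5 strain comparisons share the C57BL6/J arrays. BalbC/J (-0.21, 95% interval of the difference -0.81 to 0.40) and C57L/J (-0.01, -0.62 to 0.59) were not called. The share of all genes called in brainstem was 19.3% for C3H HeJ, 12.3% for BalbC/J, 2.75% for C57BL10/J, 2.74% for C57BLKS/J and 3.28% for C57L/J. No left-out array ended any of the 3 Glra1 calls.

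The second Glra1 probe set was also low in C57BL10/J and C57BLKS/J, with the order of these 2 strains turned. It read 10.80, 9.48 and 9.55 in C57BL6/J, 5.52, 6.16 and 5.56 in C57BL10/J, and 5.55, 7.04 and 5.57 in C57BLKS/J. Fitted among all 27507 brainstem probe sets, its differences were -4.19 in C57BL10/J (adjusted p = 0.00130, limma), -3.89 in C57BLKS/J (0.00114) and -2.38 in C3H HeJ (0.0113), the last being -1.90 without the array that stood apart (0.0387). Of all brainstem probe sets 22.3% differed among strains in that fit. Where Glra1 was dim its ranges over strains were 0.17 in hippocampus and 0.10 in striatum, neither called, at levels close to the arrays' 40th percentiles (3.22 to 3.47 and 3.12 to 3.29). The strain effect on Glra1 differed between tissues (interaction adjusted p = 8.78e-15, called for 17.4% of genes), which cannot be told apart from its low level in hippocampus and striatum.

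Tissue marker levels were set beside Glra1. Hindbrain markers averaged 8.15 to 8.20 on the C57BL10/J arrays and 8.18 to 8.33 on the C57BLKS/J arrays, beside 8.06 to 8.14 in C57BL6/J, with 13 of 14 above the 40th percentile on every one of these arrays. Markers of hindbrain inhibitory neurons averaged 4.91 to 4.93, 4.88 to 4.99 and 4.92 to 5.02 in the same strains, with 5 or 6 of 7 above that level. Slc6a5 differed from C57BL6/J by 0.10 in both low strains, neither called. In C57BLKS/J the cerebellum markers (7.11 to 7.62) were at the level of C57BL6/J (7.27 to 7.66), while in C57BL10/J they were higher (7.62 to 8.65), and their part in the Glra1 difference there was not tested. They averaged 8.18 to 9.17 in BalbC/J and 7.87 to 8.82 in C57L/J, where Glra1 was not called. In C3H HeJ the hindbrain markers had a median difference of -0.20 from C57BL6/J (0 of 13 called, down to 7.13 on the array that stood apart), and 5 of 9 oligodendrocyte markers were lower and 1 higher (median -0.42). The C3H HeJ cerebellum markers averaged 7.86 to 12.20, with a median difference of 2.73 (1 of 9 called, higher). The part of all these markers in the C3H HeJ difference was not tested.

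The 3 genes that followed Glra1 most closely over the 18 brainstem arrays were Ccm2 (r = 0.925), Fam8a1 (r = 0.901) and Gm2a (r = 0.886), correlations across arrays that share strain and pool, given as descriptions. Gm2a, which encodes the GM2 ganglioside activator, lies near Glra1 in gene order, so the 10 genes with a probe set on each side of Glra1 were examined, a choice made after the values were seen. Of these 20 genes 15 were tested in brainstem and 7 differed among strains, beside 23.0% of all genes. Gm2a was lower in C57BL10/J (-0.76, adjusted p = 2.38e-04) and C57BLKS/J (-0.88, adjusted p = 2.24e-05, limma). Its differences of -0.08 in BalbC/J, 0.01 in C57L/J and -0.01 in C3H HeJ were not called, although Glra1 was lower in C3H HeJ. The direct neighbour G3bp1 was higher in C57BL10/J (0.44, adjusted p = 0.0445, limma). Gria1, 2 places away, had differences of 0.31 and 0.09 in C57BL10/J and C57BLKS/J that were not called. In C3H HeJ 4 of the 15 tested neighbours were called, beside 19.3% of all genes. Gria1 (0.77, adjusted p = 0.0186) and Sap30l (0.38, 0.0132) were higher. Lower were 2010001A14Rik (-1.32, 2.09e-04) and Atox1 (-0.46, 0.0148, limma for all). No other tested neighbour was called in either of the 2 low strains.

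Glra2 had its highest strain mean in C57BL6/J in hippocampus, and its lowest in the same strain in striatum. In hippocampus it read 7.08, 7.64 and 7.83 in C57BL6/J, 7.38, 7.54 and 7.55 in C57BL10/J, and 6.72, 7.69 and 7.37 in C57L/J. It read 6.91, 6.67 and 6.86 in BalbC/J, 6.52, 6.92 and 6.35 in C3H HeJ, and 6.64, 6.24 and 6.53 in C57BLKS/J. All 9 arrays of the last 3 strains lay below all 3 C57BL6/J arrays. Oligodendrocyte markers were lower than in C57BL6/J in the same strains (7 of 9 in BalbC/J, 6 in C3H HeJ and 3 in C57BLKS/J, against 1 in C57BL10/J and 0 in C57L/J). Their mean level ranged from 12.10 to 12.61 over those 3 strains and from 12.81 to 13.06 in C57BL6/J. It was 12.51 to 12.67 in C57BL10/J and 12.68 to 12.92 in C57L/J. The median marker difference was -0.345 in C57BL10/J, beside -0.342 in C57BLKS/J. The part of these markers in the Glra2 difference was not tested. The differences from C57BL6/J were -0.92 ± 0.21 in C3H HeJ (1.90-fold, adjusted p = 0.00632), -0.70 ± 0.21 in BalbC/J (adjusted p = 0.0339) and -1.05 ± 0.21 in C57BLKS/J (adjusted p = 0.00689, limma). Of all genes, 18.0% were called for C3H HeJ, 15.1% for BalbC/J and 5.57% for C57BLKS/J, 2.25% for C57BL10/J and 4.39% for C57L/J.

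**Figure D3:**
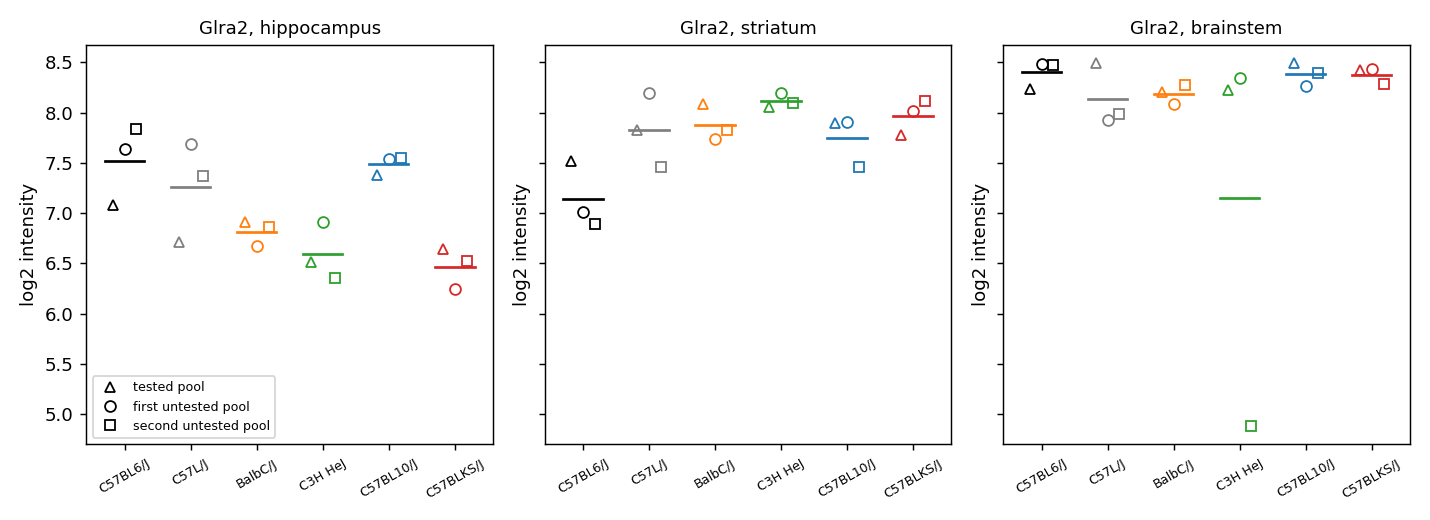
Log2 intensity of Glra2 by strain in hippocampus, striatum and brainstem; symbols show the pool and bars the strain mean. C57BL6/J has the highest mean in hippocampus (7.52) and the lowest in striatum (7.14), and 1 C3H HeJ brainstem array lies at 4.88.

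In striatum C57BL6/J was instead the lowest strain, at 7.52, 7.01 and 6.89. C3H HeJ read 8.06, 8.19 and 8.10 (0.98 ± 0.19 higher, adjusted p = 0.00370), BalbC/J read 8.08, 7.74 and 7.82 (0.74 ± 0.19, adjusted p = 0.0316), and C57BLKS/J read 7.78, 8.01 and 8.12 (0.83 ± 0.19, adjusted p = 0.0413, limma for all). None of their values overlapped C57BL6/J. C57BL10/J (0.61 ± 0.19) and C57L/J (0.69 ± 0.19) were also higher than C57BL6/J, neither called. All of these comparisons share the C57BL6/J arrays of the tissue, in hippocampus as in striatum. The share of genes called in striatum was 17.6% for C3H HeJ, 7.68% for BalbC/J, 2.18% for C57BLKS/J, 0.536% for C57BL10/J and 4.30% for C57L/J. Oligodendrocyte markers were lower than in C57BL6/J in striatum too, here beside a higher Glra2. Of 9 markers 6 were lower in C3H HeJ, 3 in BalbC/J, 1 in C57BLKS/J and 0 in C57BL10/J and C57L/J. Their part was not tested. In a comparison added after the values were seen, the striatal minus the hippocampal difference was 1.90 ± 0.58 in C3H HeJ (adjusted p = 0.0338, called for 8.90% of genes). It was 1.44 ± 0.58 in BalbC/J (adjusted p = 0.314, 1.23% of genes) and 1.88 ± 0.58 in C57BLKS/J (adjusted p = 0.246, 0.151%), neither called.

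Several Glra2 calls were lost, and some gained, when 1 array was left out. The C3H HeJ calls held without any 1 array. In striatum the C57L/J difference was called without the second untested C57L/J array (0.86, adjusted p = 0.0402). It was also called without the tested C57L/J array (0.73, 0.0450) or the tested C57BL6/J array (0.87, 0.0399, limma for all). The BalbC/J call was lost on leaving out any of 4 hippocampal arrays (adjusted p up to 0.151, without the second untested C57BL6/J array) or any of 5 striatal arrays (up to 0.142). The C57BLKS/J call was lost without the second untested C57BL6/J array in hippocampus (0.0512) and on leaving out any of 10 arrays in striatum (up to 0.198), and in striatum it was also not made without the filter on dim genes (0.0540) or after centring (0.0616). The range over strains in hippocampus kept its call throughout, and that in striatum lost it without the first (0.0875) or second (0.102) untested C57BL6/J array. In brainstem Glra2 lay between 7.92 and 8.50 on 17 arrays and at 4.88 on the array rich in cerebellum markers. The C3H HeJ difference was -1.25 with it and -0.13 without it, not called either way. The interaction test over all tissues gave adjusted p = 0.0759 with that array and 4.17e-05 without it (21.8% of genes called).

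Slc32a1 differed among strains in striatum (range 0.84, adjusted p = 0.0398). C57L/J was the lowest strain, with 12.22, 11.63 and 11.21, and C3H HeJ the highest, with 12.58, 12.59 and 12.42. The tested C57L/J array overlapped the other strains and its untested arrays did not. The striatum markers moved with it: on the same arrays they averaged 13.73, 13.31 and 12.74, and their median difference from C57BL6/J was -0.43, with 0 of 6 called. The choroid plexus markers averaged 6.94 to 9.11 there and 5.74 to 8.70 in C57BL6/J, with 0 of 5 called, and the cerebellum markers had a median difference of 0.49, with 1 of 4 called. The part of these markers in the Slc32a1 difference was not tested. The difference of -0.62 from C57BL6/J was not called with all arrays (adjusted p = 0.0697), and was -0.88 without the tested C57L/J array (adjusted p = 0.00267). The call on the range was lost on leaving out any of 12 arrays (adjusted p up to 0.106, without the first untested C57L/J array, and 0.0877 without the second). It was also not made without the filter on dim genes (0.0537) or after centring (0.0588). With the mean of probe sets it was not made either (0.106), but that mean takes in the dim Slc32a1 probe sets and cannot decide. The strain effect on Slc32a1 differed between tissues (interaction adjusted p = 0.00459), with ranges of 0.21 in hippocampus and 0.18 in brainstem.

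Slc6a9 was slightly lower in C3H HeJ. In hippocampus it read 9.11, 9.29 and 9.01 there and 9.57, 9.27 and 9.51 in C57BL6/J, overlapping groups (-0.31 ± 0.10, adjusted p = 0.0389), a call lost on leaving out any of 5 arrays (adjusted p up to 0.178, without the tested C57BL6/J array) and not made without the filter on dim genes (adjusted p = 0.0530), after centring (0.0934) or with the mean of its probe sets (0.214). In brainstem it read 11.64, 11.76 and 11.13 against 11.90 on all 3 C57BL6/J arrays (-0.40 ± 0.12, adjusted p = 0.0389). Without the array that stood apart the difference was -0.20 and not called (adjusted p = 0.0739), and 7 other left-out arrays also ended the call, as did no filter (0.0549) and the mean of probe sets (0.0913).

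Without the brainstem array that stood apart, the fit changed which small differences were called. Members differing among strains in brainstem rose from 1 to 4 of 8 (Glra1, Glra3, Slc6a9 and Slc32a1), beside 37.7% of all genes. Differences from C57BL6/J called there rose from 4 to 11. Slc32a1 was higher in C3H HeJ (0.17), BalbC/J (0.17), C57BL10/J (0.18) and C57L/J (0.18). Glra3 was lower in C57BL10/J (-0.45, adjusted p = 0.0122) and BalbC/J (-0.31, adjusted p = 0.0397), Slc6a9 was lower in BalbC/J (-0.21), and Slc6a5 was higher in BalbC/J (0.18). In that fit the background was 21.5% for C3H HeJ, 25.3% for BalbC/J, 12.2% for C57BL10/J, 7.73% for C57BLKS/J and 9.14% for C57L/J. None of these differences, Glra1 aside, was larger than 0.45 in size (log2).

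**Figure D4:**
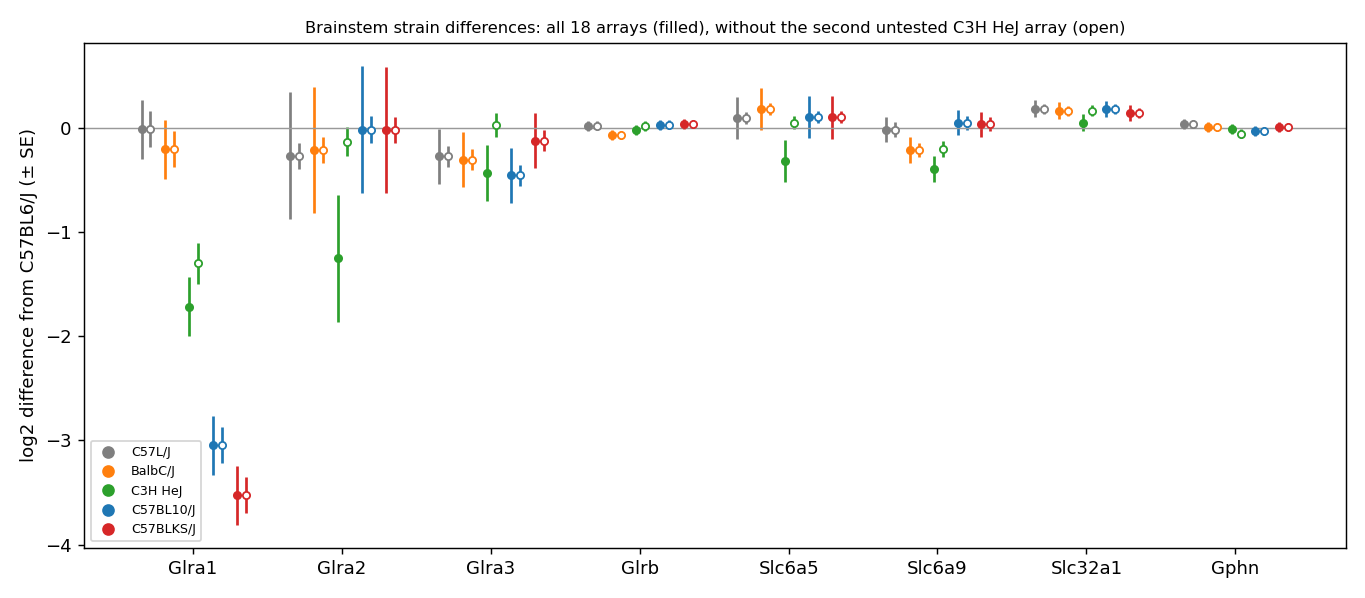
Log2 difference from C57BL6/J in brainstem (± SE, limma) for the 8 genes and 5 strains, with all 18 arrays (filled) and without the second untested C3H HeJ array (open). Glra1 in C57BL10/J (-3.05) and C57BLKS/J (-3.53) lies far below the rest, and the C3H HeJ difference of Glra2 moves from -1.25 to -0.13.

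Glrb and Gphn, which every glycine receptor synapse shares, were steady across strains by their main probe sets: the Glrb range was 0.11 in brainstem, 0.15 in hippocampus and 0.30 in striatum, and that of Gphn 0.07, 0.12 and 0.18, none called. Their other probe sets did not all behave alike. The second Glrb probe set differed among strains in brainstem (range 0.44, adjusted p = 0.0323), from 14.79 to 14.99 in C57BL6/J down to 14.17 to 14.60 in C3H HeJ. Every other strain was below C57BL6/J there. This was called for C3H HeJ (-0.44, adjusted p = 0.00696), BalbC/J (-0.39, 0.0209) and C57BL10/J (-0.40, 0.0380, limma for all). It was not called for C57BLKS/J (-0.33) and C57L/J (-0.27). Without the array that stood apart its range was 0.40 (adjusted p = 0.00237, with 33.6% of probe sets called) and the C3H HeJ difference -0.30 (adjusted p = 0.00958). The second Gphn probe set differed in hippocampus (range 0.30, adjusted p = 0.00871) and striatum (range 0.45, adjusted p = 0.00945). It was lowest in C3H HeJ in both, at means of 10.09 ± 0.0756 and 9.82 ± 0.0904 (SD, n = 3), beside 10.34 ± 0.0604 and 10.18 ± 0.0638 in C57BL6/J. The third differed in hippocampus (range 0.39, adjusted p = 0.0198). Of all probe sets, 32.7% differed among strains in hippocampus and 23.9% in striatum.

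Among the surrounding genes the strain test called 4 of 11 scaffold genes in brainstem, 2 of 5 molybdenum cofactor genes, 2 of 8 glycine metabolism genes, 4 of 7 neutral amino acid carriers, 0 of 4 GABA genes and 2 of 4 chloride genes, beside 23.0% of all genes. The widest scaffold range belonged to Pfn1, an actin-binding partner of gephyrin, which was 1.45 higher in C57BLKS/J than in C57BL6/J (adjusted p = 4.07e-06) and 0.23 higher in C57BL10/J, not called. In C57BL10/J brainstem the called genes were 1 higher and 0 lower of 11 scaffold genes, and none in the other lists. In C57BLKS/J they were 1 higher scaffold gene (Pfn1) and 2 lower genes, the carrier Slc38a2 (-0.49) and Wnk1 (-0.29), a kinase that controls chloride transporters.

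The third question was whether testing for prepulse inhibition left a mark. No member differed between tested and untested pools in hippocampus, striatum or brainstem, and no gene of the whole array did (0.00% in each tissue, limma). At an unadjusted p under 0.05 there were 0 members of 7, 7 and 8, and 488, 467 and 281 genes in all. The smallest unadjusted p of a member was 0.101, for Glra2 in hippocampus (-0.22 ± 0.13). With 1 tested pool per strain the estimate rests on 6 tested and 12 untested arrays per tissue, and a p that misses the threshold does not show that values were equal.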

How the data were processed

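Pooled RNA was hybridised to Affymetrix mouse arrays of 45101 probe sets, and the deposited log2 values of the authors were used as given. The submitters' processing notes name R 2.6.1, affy 1.16.0, RMA, GCRMA 2.10.0 and limma 2.12.0, without saying which made the values. Joint normalization of tissues and hybridization batches: not given in the sources used here. Probe sets took their gene from the platform annotation (34945 had 1 symbol, 932 several, 9160 none). Promoters and gene order came from RefSeq tables (GRCm38.p6).

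Genes that 3 or more arrays placed above their 40th percentile were fitted with limma 3.58.1 (R 4.3.3, empirical Bayes with an intensity trend, two-sided, Benjamini-Hochberg over all genes tested). Within a tissue the model held strain and testing. Across tissues it held both within each tissue, arrays being taken as independent although tissues of a strain came from the same mice. Tissue differences also had to pass 2-fold. The fits were tested on simulated data. Differences between strain and probe sequence were not analysed here.

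The members and lists were chosen with earlier results of these data known. Named were all members, up to 4 genes per list and comparison with the smallest p, and the 3 genes most correlated with a member; the genes beside Glra1 and the striatal minus hippocampal comparison were added after the values were seen. The alternatives were the mean of probe sets, every probe set, quantile normalization, median centring, no filter, no intensity trend, no testing term, a replicate block and each array left out.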

Additional observations from a re-analysis of the deposited data

Results flagged for a closer look

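The strain differences of 2 genes were unlike between tissues. For Glra1 the strain by tissue interaction had adjusted p = 8.78e-15 (limma), with a range over strains of 3.53 in brainstem, 0.17 in hippocampus and 0.10 in striatum (log2), where it lay near the array's 40th percentile in the latter tissues. For Slc32a1 it had adjusted p = 0.00459, with ranges of 0.84 in striatum, 0.21 in hippocampus and 0.18 in brainstem.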

How the results depend on the processing

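The counts of members over 2-fold higher in brainstem, 6 over hippocampus and 4 over striatum, were 5 and 5 with the mean of probe sets, 6 and 5 with every probe set and otherwise unchanged under the whole-data alternatives, and ran from 5 to 6 and stayed at 4 with each array left out. Members differing among strains in hippocampus numbered 1, and 2 with the mean of probe sets or every probe set (1 to 3 with each array left out). In striatum they numbered 2, and 1 with the mean of probe sets, median centring or no filter (0 to 3). In brainstem they numbered 1, and 2 with every probe set or no testing term (1 to 4). Called differences from C57BL6/J were 4, 3 and 4 in hippocampus, striatum and brainstem, 7 in brainstem with every probe set, and 1 to 6, 1 to 5 and 3 to 11 with each array left out. Among single differences, no filter ended those of Slc6a9 in C3H HeJ and of Glra2 in C57BLKS/J striatum, centring ended that of Glra2 and the hippocampal one of Slc6a9, and the mean of probe sets ended both of Slc6a9. Quantile normalization added Glra2 in C57L/J striatum (adjusted p = 0.0443), and the mean of probe sets added Glrb in C3H HeJ (0.0223) and BalbC/J (0.0318) brainstem and Gphn in C3H HeJ hippocampus (0.0466). Between hippocampus and striatum 1 member passed 2-fold, 0 with the mean of probe sets and 2 with quantile normalization or median centring. Interactions numbered 2, 4 with every probe set and 2 to 5 with each array left out. That of Slc32a1 was lost with the mean of probe sets (adjusted p = 0.0787, limma). For Slc32a1 that mean takes in dim probe sets, so changes under it decide nothing. Directions turned for Gphn between brainstem and hippocampus (0.17 with the mean of probe sets, 0.0779 with centring), brainstem and striatum (-0.20 with quantile normalization, -0.23 with centring) and hippocampus and striatum (-0.20 and -0.31), for Slc32a1 between brainstem and striatum (0.0499 with the mean of probe sets) and for Glrb between hippocampus and striatum (-0.0692 with centring). The causes were not tested. Same-numbered arrays of different tissues had median correlations of 0.096, -0.014 and 0.019, so the numbers were not taken to pair them; with the replicate block the counts were 1, 2 and 1 among strains, 4, 3 and 4 from C57BL6/J, 6, 4 and 1 between tissues and 2 interactions, as without it. The number of arrays, 3 per strain and tissue, limits the precision.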
